A study of Homo sapiens with 8 samples.

Results

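The 36 genes described here encode aminoacyl-tRNA synthetases, the enzymes that load each amino acid onto its tRNA. They were taken by gene symbol from tables of 26485 genes in BEAS-2B cells. Of these, 16 with symbols ending in 2 encode enzymes of the mitochondrial matrix. The other 20 encode cytosolic enzymes, and were counted as such even where 1 gene serves both compartments, as GARS (glycine) and KARS (lysine) do. No measured value enters the choice of symbols. The family was nevertheless chosen with the siRNA and HDM differences of these libraries known. Its values are therefore a description: adjusted p-values come from fits across all genes and are no independent evidence for the family, and the 2 classes are set side by side by counts and medians with no test between them.

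Cytosolic and mitochondrial protein synthesis use separate sets of synthetases, all made from nuclear genes. In the cytosol, several synthetases sit together in a multisynthetase complex, held by the scaffold proteins AIMP1, AIMP2 and EEF1E1. The others act outside it. Many cytosolic synthetase genes are known targets of ATF4, which the integrated stress response induces. This transcription factor binds a site called the C/EBP-ATF response element. WARS, for tryptophan, is also known as an interferon-inducible gene.

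BEAS-2B cells come from human bronchial epithelium and were immortalised with a virus. A single line was used. Cells received control siRNA or siRNA against LY96, the gene of the lipopolysaccharide-binding protein MD-2. The medium was changed 24 h before stimulation with PBS or house dust mite (HDM) extract, an allergen mixture, and RNA was taken 24 h after it. There were 3 HDM libraries for each siRNA, but 1 PBS library for each. The labels do not say if replicate libraries were grown as separate cultures, so the p-values cover only the variation among these libraries, and that may be technical.

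Values are FPKM, fragment counts scaled by transcript length and library size, so levels can be compared between genes. Library totals ranged from 329777 to 340328 FPKM, and read depth is unknown. LY96 was listed at 0 in all 8 libraries, so its depletion could not be checked and the siRNA groups are named by their labels. All 7 bronchial epithelial markers were above 1 FPKM on average, while the 3 secretory and ciliated markers SCGB1A1, FOXJ1 and MUC5AC were at 0 in every library. The summed leukocyte markers were at 2.80 to 3.53 FPKM in the control siRNA HDM libraries and at 4.96 to 5.36 FPKM in the LY96 siRNA HDM libraries. With PBS they were at 2.63 FPKM with control and 3.22 FPKM with LY96 siRNA. CD68 is the only 1 of those 6 markers above 1 FPKM on average, and PTPRC and CD3E were at 0 throughout. The ribosomal RNA share was 0.475% to 0.824% of total FPKM in the HDM libraries of the control siRNA, and 1.03% to 1.31% in those of the LY96 siRNA. Epithelial and some fibroblast markers also differed between the HDM groups. With LY96 siRNA, KRT7, KRT8, KRT18, KRT19 and EPCAM were lower in all 3 libraries, the most for KRT19 (0.631-fold). KRT5, CDH1 (1.42-fold) and COL1A1 (1.35-fold) were higher. PDGFRB, the only other fibroblast marker above 1 FPKM on average, overlapped (0.940-fold), and DCN and LUM were at 0 throughout. In the PBS libraries CDH1 (1.86-fold), COL1A1 (1.52-fold) and KRT5 (1.33-fold) were already higher with LY96 siRNA. KRT19 was already lower there (0.775-fold), and EPCAM was not (1.11-fold). The part of any of these in the results below was not tested.

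The sequences at the starts of these genes are shown first, because 7 of the 10 members that rose in the siRNA comparison below carry a short motif there. RefSeq promoter windows (GRCh38.p14, 250 bases before to 50 bases after a gene's start) were found for 30 of the 36 members. They were searched on both strands for TGATGNAA, the core of the C/EBP-ATF response element. Each stretch below is 30 bases, written 5′ to 3′ on the strand that carries the motif, with the motif in capitals.
AARS: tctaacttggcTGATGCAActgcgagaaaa
CARS: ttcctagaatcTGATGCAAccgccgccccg
GARS: ggctcggagcaTGATGAAAtcgccgcgtaa
IARS: gcgcacggaggTGATGCAAcgcgctgaaaa
MARS: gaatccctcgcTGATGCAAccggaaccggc
NARS: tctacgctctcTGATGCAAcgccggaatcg
TARS: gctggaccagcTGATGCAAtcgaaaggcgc
YARS2: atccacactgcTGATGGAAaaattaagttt

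In GRCh38.p14 these stretches lie at chr16:70289675-70289704 (plus strand) for AARS, chr11:3057407-3057436 (plus) for CARS, chr7:30594834-30594863 (minus) for GARS and chr9:92293692-92293721 (plus) for IARS. Those of MARS, NARS, TARS and YARS2 lie at chr12:57488053-57488082, chr18:57621804-57621833, chr5:33440956-33440985 and chr12:32756076-32756105, all on the minus strand. For AARS and YARS2 the motif begins 187 and 197 bases before the start that the RefSeq window uses. The other 6 lie between 33 bases before and 14 bases after it. These starts can differ from the GENCODE gene coordinates given below. For MARS, the stretch lies well inside the GENCODE span.

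The motif was present in 7 of 16 cytosolic genes with a window and in 1 of 14 mitochondrial ones, YARS2. It is in 3.62% of all 35116 promoter windows, and in 4.46% of the 27305 genes that have a window. CARS, GARS and TARS have 2 windows each, and carry it in 1 of them. Split by the siRNA comparison below, the motif was in 7 of the 9 cytosolic genes with a window that rose with LY96 siRNA under HDM, and in 0 of the 7 that did not pass the test. EPRS and SARS rose and have no match in these windows. DARS, LARS, VARS, YARS, AARS2 and VARS2 have no entry in the table. A match describes letters and is no evidence of binding.

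With LY96 siRNA under HDM, 10 of 20 cytosolic synthetase genes rose and 0 fell, while 0 of 16 mitochondrial genes rose and 1 fell (limma on log2(FPKM + 1), adjusted p below 0.05). The comparison sets 3 LY96 siRNA HDM libraries against 3 control siRNA HDM libraries. Across all 12598 genes tested, 6.68% rose and 8.92% fell. At an unadjusted p under 0.05 the counts were 12 up and 5 down for the cytosolic class, and 0 up and 3 down for the mitochondrial class, where 12.8% of all genes were up and 18.4% down. The downward counts of both classes are near that share. The median difference was log2 0.14 for the cytosolic class, -0.07 for the mitochondrial class and -0.02 for all genes. After median-ratio scaling the split over all genes turned from 842 up and 1124 down to 1068 up and 877 down, with 11 cytosolic genes up and the same 1 mitochondrial gene down. In bulk RNA, a change in the cells present and a change in RNA per cell cannot be told apart.

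**Figure D1:**
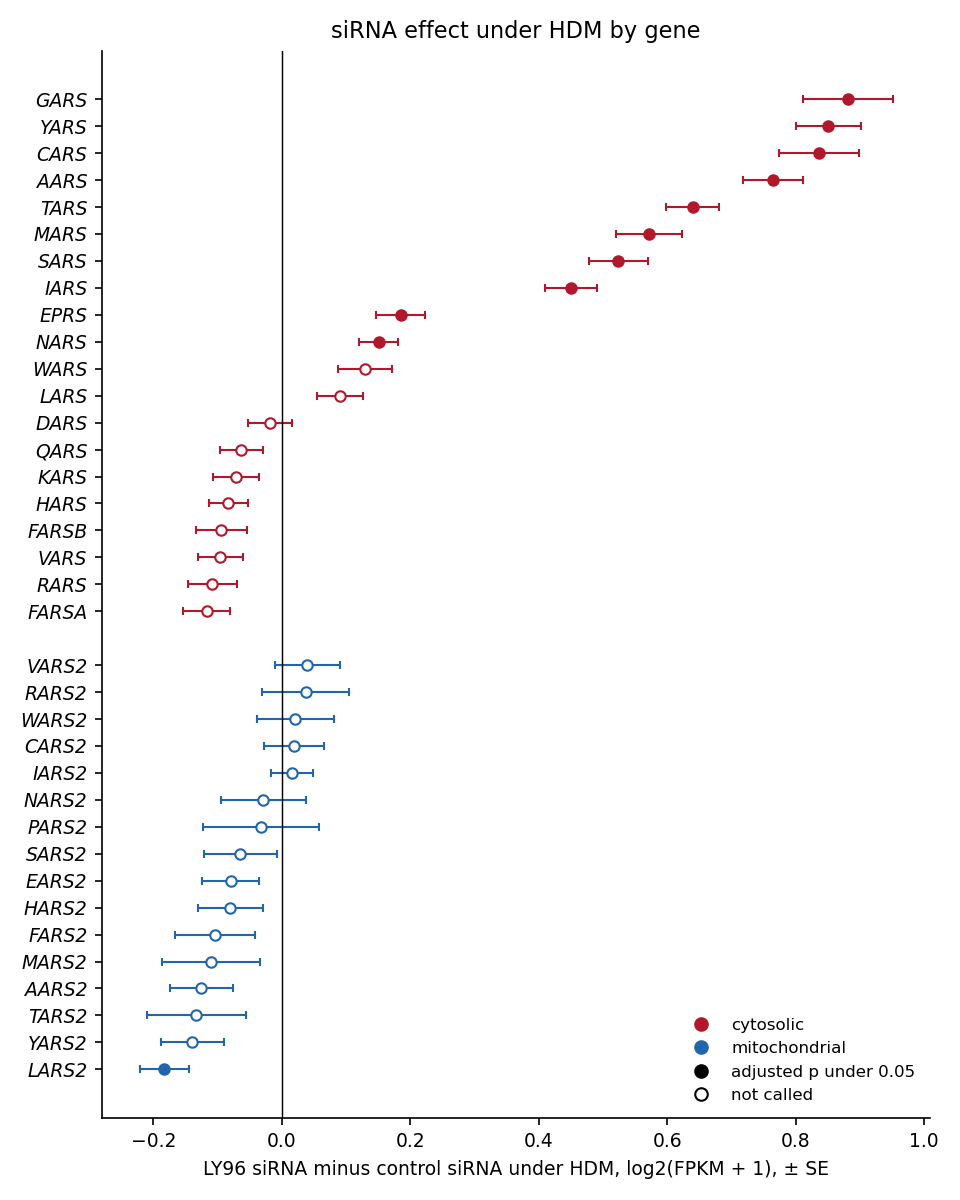
Difference between LY96 siRNA and control siRNA under HDM for each synthetase gene, as log2(FPKM + 1) ± SE on the horizontal axis (3 libraries a group). Filled points passed an adjusted p of 0.05: 10 cytosolic genes (red) lie to the right, from NARS to GARS, and LARS2 is the only filled mitochondrial gene (blue).

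GARS, YARS and CARS had the largest differences. GARS (chromosome 7, 30594681 to 30634033, GRCh38), the glycine enzyme of both compartments, was at 28.4, 27.6 and 26.1 FPKM in the 3 control siRNA HDM libraries and at 49.97, 57.4 and 46.9 FPKM with LY96 siRNA. All LY96 siRNA libraries lay above all control ones, a 1.88-fold difference of means (log2 0.88 ± 0.07 SE, adjusted p = 2.82e-04). In the PBS libraries it was at 24.5 FPKM with control and 26.7 FPKM with LY96 siRNA, close to the control siRNA HDM libraries.

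YARS (chromosome 1, 32775237 to 32818153), the tyrosine enzyme, was at 20.5, 20.7 and 19.5 FPKM with control siRNA and HDM, and at 36.7, 40.01 and 35.1 FPKM with LY96 siRNA and HDM. The groups did not overlap (1.85-fold, log2 0.85 ± 0.05 SE, adjusted p = 5.17e-05). CARS (chromosome 11, 3000922 to 3057613), for cysteine, went from 19.7, 20.2 and 19.1 FPKM to 33.8, 39.99 and 34.3 FPKM, again with no overlap (1.83-fold, log2 0.84 ± 0.06 SE, adjusted p = 2.09e-04). Both genes were below 19 FPKM in the 2 PBS libraries, at 17.04 and 18.9 FPKM for YARS and 17.2 and 18.5 FPKM for CARS.

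AARS (chromosome 16, 70252295 to 70289543), for alanine, was at 45.4, 47.6 and 48.9 FPKM with control siRNA and at 78.5, 86.7 and 78.1 FPKM with LY96 siRNA under HDM. That is 1.72-fold (log2 0.76 ± 0.05 SE, adjusted p = 5.68e-05), with the groups well apart. TARS (chromosome 5, 33440696 to 33469539), for threonine, went from 39.6, 39.6 and 37.9 FPKM to 61.0, 64.6 and 58.6 FPKM (1.57-fold, log2 0.64 ± 0.04 SE, adjusted p = 7.53e-05). SARS (chromosome 1, 109213918 to 109238169), for serine, is among the most abundant synthetase mRNAs here. It went from 56.3, 57.8 and 58.8 FPKM to 82.8, 89.2 and 78.3 FPKM (1.45-fold, log2 0.52 ± 0.05 SE, adjusted p = 3.42e-04). NARS (chromosome 18, 57600656 to 57622213), for asparagine, rose much less, from 52.5, 51.9 and 52.8 FPKM to 58.4, 59.6 and 56.9 FPKM (log2 0.15 ± 0.03 SE, adjusted p = 0.0131). Leaving out control HDM replicate 2 removed the call (adjusted p = 0.0534), as did an additive model over all 8 libraries (0.150).

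Of the 8 synthetases of the multisynthetase complex, 3 rose, with a median of log2 0.04. Among the 12 enzymes outside it 7 rose, with a median of log2 0.34. This grouping was made after the values were seen. MARS (chromosome 12, 57475445 to 57517569), for methionine, went from 36.6, 38.3 and 38.8 FPKM to 54.4, 61.7 and 54.7 FPKM (1.502-fold, log2 0.57 ± 0.05 SE, adjusted p = 3.51e-04). Its annotated exons share 355 bases with exons of DDIT3 on the opposite strand, and DDIT3 itself went from 9.36 ± 0.589 to 21.8 ± 2.31 FPKM (SD, n = 3 each). The sources used here do not state whether strand was kept, so reads of the 2 genes may be mixed there.

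IARS (chromosome 9, 92210207 to 92293756), for isoleucine, went from 31.2, 32.6 and 32.2 FPKM to 44.9, 45.6 and 41.8 FPKM (1.38-fold, log2 0.45 ± 0.04 SE, adjusted p = 3.51e-04). EPRS (chromosome 1, 219968601 to 220046658), which loads both glutamate and proline, went from 28.1, 28.4 and 30.04 FPKM to 33.0, 33.7 and 32.0 FPKM (log2 0.18 ± 0.04 SE, adjusted p = 0.0142). The IARS groups stood far apart, whereas the nearest EPRS libraries of the 2 groups differed by about as much as libraries within a group. EPRS no longer passed when control HDM replicate 2 was left out (adjusted p = 0.0558).

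The other 5 synthetases of the complex did not pass the test. LARS (leucine) was at log2 0.09, DARS (aspartate) at -0.02, QARS (glutamine) at -0.06, KARS at -0.07 and RARS (arginine) at -0.11. DARS had the smallest difference of the cytosolic class, with means of 25.4 ± 0.271 and 25.1 ± 0.672 FPKM (SD, n = 3 each). KARS, for lysine, serves both compartments as GARS does, yet its libraries overlapped. They were at 61.6, 63.2 and 64.9 FPKM with control siRNA and at 58.8, 62.6 and 59.0 FPKM with LY96 siRNA (adjusted p = 0.212). QARS was the most abundant member in the control PBS library, at 68.5 FPKM. Under HDM it was at 66.3, 65.9 and 64.9 FPKM with control siRNA and at 60.7, 64.9 and 63.0 FPKM with LY96 siRNA (adjusted p = 0.234).

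Outside the complex, HARS (histidine, log2 -0.08), FARSB and FARSA, the 2 subunits of the phenylalanine enzyme (-0.09 and -0.12), and VARS (valine, -0.10) did not pass either. The LY96 siRNA libraries of HARS, FARSA, FARSB, VARS and RARS nevertheless all lay below the control ones, as did those of 21.8% of all genes tested. FARSA had adjusted p = 0.0624, and 0.0446 once libraries were scaled to equal totals and 0.0184 in the additive model.

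WARS is given in full as the interferon-inducible member. With control siRNA its level was 18.3 FPKM under PBS and 21.8, 21.7 and 22.7 FPKM under HDM. For LY96 siRNA the level was 17.2 FPKM under PBS and 24.4, 25.3 and 23.0 FPKM under HDM. The HDM difference passed with LY96 siRNA (log2 0.47, adjusted p = 0.00260) and not with control siRNA (log2 0.26, adjusted p = 0.0667). The siRNA effect under HDM did not pass (log2 0.13 ± 0.04 SE, adjusted p = 0.0708). It passed after median-ratio scaling (0.0393), after quantile normalization (0.0391) and without LY96 HDM replicate 3 (0.0446). Over all genes in the same comparison, 6.68% rose and 8.92% fell. Among 17 interferon-stimulated genes, of which 16 were tested, 0 rose and 9 fell, with a median of log2 -0.28. IFI27, the largest of these falls, went from 266 ± 37.7 to 80.7 ± 1.77 FPKM (SD, n = 3 each). MX1 (log2 -0.62), IFI6 (-0.58) and OAS1 (-0.52) came next. Without HDM, IFI27 was already lower with LY96 siRNA, at 0.311-fold beside 0.304-fold under HDM. MX1 (0.765-fold), IFI6 (0.734-fold) and OAS1 (0.795-fold) were also lower there. These PBS values rest on 1 library for each siRNA and have no test. MX1 did not pass when any HDM library but LY96 HDM replicate 1 was left out, nor IFI6 without control HDM replicate 2 or 3 or LY96 HDM replicate 2 or 3 (adjusted p up to 0.126 and 0.0919 over the alternatives). WARS thus did not fall with IFI27, MX1, IFI6 and OAS1 under HDM. Of the 16 tested genes of that list, 7 did not pass either, among them IRF1 (1.04-fold) and GBP2 (1.01-fold).

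**Figure D2:**
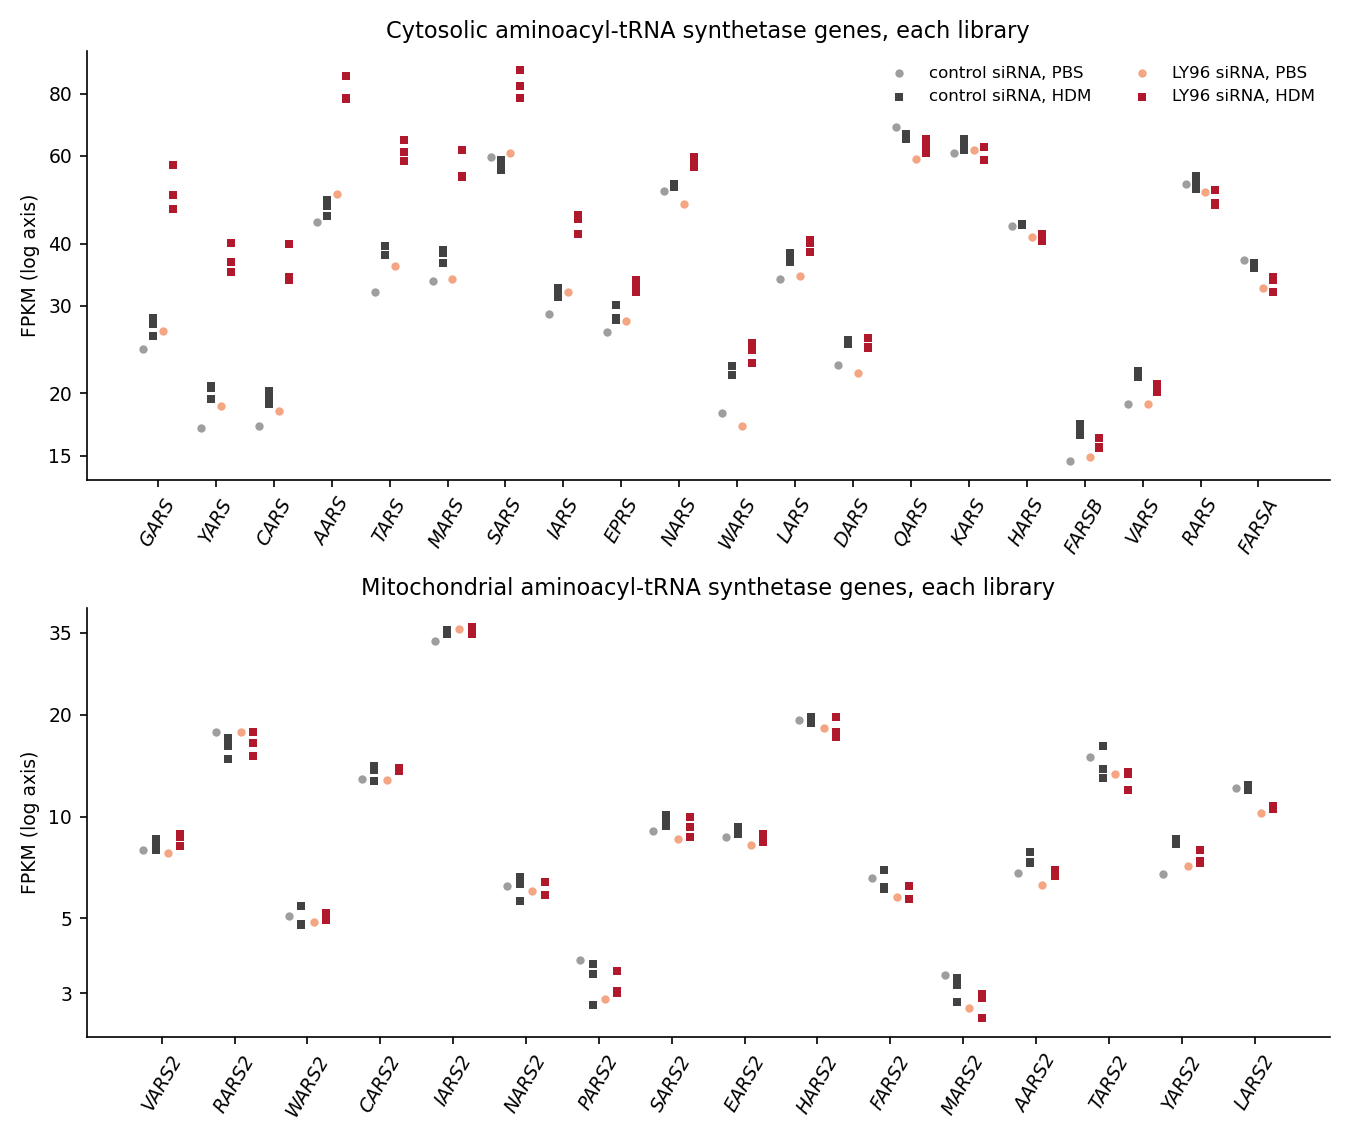
FPKM of every synthetase gene in each of the 8 libraries, on log axes, with cytosolic genes above and mitochondrial genes below, both ordered by the siRNA difference under HDM. For the leading cytosolic genes the 3 LY96 siRNA HDM libraries (red squares) stand clear of the other 5, whereas mitochondrial genes differ little between groups.

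By the class median, mitochondrial synthetase genes were expressed at lower levels than cytosolic ones in every library. Single genes of the classes overlapped, with IARS2 above IARS in the control PBS library (33.1 and 28.9 FPKM). The class median ranged from 8.03 to 8.88 FPKM over the 8 libraries, against 32.8 to 43.4 FPKM for the cytosolic class. IARS2 (isoleucine) was the highest, and was at 35.3, 34.8 and 35.6 FPKM with control siRNA and HDM and at 36.4, 34.7 and 35.8 FPKM with LY96 siRNA and HDM. It had the smallest siRNA difference of this class (log2 0.02, adjusted p = 0.780). The lowest was MARS2 (methionine), at 2.53 to 3.39 FPKM over all libraries.

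LARS2 (chromosome 3, 45388506 to 45549421), the mitochondrial leucine enzyme, was the 1 member that fell. It was at 12.4, 12.001 and 12.2 FPKM with control siRNA and HDM and at 10.5, 10.7 and 10.6 FPKM with LY96 siRNA and HDM (log2 -0.18 ± 0.04 SE, adjusted p = 0.0151). The groups did not overlap, and the call held in all 17 alternatives, with adjusted p from 0.00453 to 0.0491. The PBS libraries stood apart in the same direction, at 12.1 FPKM with control and 10.2 FPKM with LY96 siRNA.

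The next largest differences in this class were those of YARS2 (tyrosine), TARS2 (threonine) and AARS2 (alanine), at log2 -0.14, -0.13 and -0.13, with adjusted p of 0.0865, 0.280 and 0.116. YARS2 was at 8.28, 8.40 and 8.57 FPKM with control siRNA and HDM and at 7.30, 7.36 and 7.98 FPKM with LY96 siRNA and HDM. AARS2 was at 7.86, 7.30 and 7.33 FPKM and at 6.73, 6.67 and 6.96 FPKM. In both genes the LY96 siRNA libraries all lay lower. Their unadjusted p in limma was 0.0191 and 0.0302, and neither passed after adjustment across all genes. TARS2 overlapped, at 13.0, 13.8 and 16.2 FPKM against 13.4, 13.5 and 11.99 FPKM. The other 12 members ranged from log2 -0.11 for MARS2 to 0.04 for VARS2. In all, the LY96 siRNA libraries were all higher for 12 cytosolic and 0 mitochondrial genes, where 15.2% of all genes tested showed this. They were all lower for 5 cytosolic and 4 mitochondrial genes, near the 21.8% of all genes that showed this.

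Summed over the class, cytosolic synthetase FPKM was 742, 748 and 754 in the control siRNA HDM libraries and 899, 957 and 889 in the LY96 siRNA HDM libraries. With PBS it was 706 for each siRNA. The 10 genes that rose account for the difference, at 362 ± 3.57 and 543 ± 32.0 FPKM (SD, n = 3 each), since the other 10 summed to 385 ± 3.583 and 372 ± 6.46 FPKM. The mitochondrial sum was 178 ± 4.81 and 171 ± 0.640 FPKM. The ratio of the 2 sums was therefore 4.21 ± 0.0796 for the HDM libraries with control siRNA, and 5.34 ± 0.195 for those with LY96 siRNA (SD, n = 3 each). For PBS it was 4.05 with control and 4.18 with LY96 siRNA. These sums are a description, since the 10 genes were grouped by this same comparison.

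Setting each cytosolic gene against the mitochondrial gene for the same amino acid gave 17 pairs of members. EPRS and FARS2 each enter more than 1 pair, so the pairs are not separate. The ratio was higher in every LY96 siRNA HDM library than in every control siRNA HDM library for 9 pairs, lower for 1 (VARS/VARS2) and overlapping for 7. All of the 9 but LARS/LARS2 hold a cytosolic gene that rose, so they restate that comparison. The share for gene pairs in general was not computed. Of single genes, 15.2% lay all higher and 21.8% all lower. YARS/YARS2 was at 2.47, 2.46 and 2.27 with control siRNA and at 5.02, 5.44 and 4.401 with LY96 siRNA. AARS/AARS2 was at 5.78, 6.52 and 6.66 and at 11.7, 13.0 and 11.2. IARS/IARS2 is the 1 pair whose order changed, with a mean ratio of 0.909 ± 0.0270 (SD, n = 3) in the control siRNA HDM libraries and 1.24 ± 0.0733 (SD, n = 3) in the LY96 siRNA ones. HARS/HARS2, which start next to each other on opposite strands with 437 overlapping exon bases, stayed at 2.26 ± 0.0407 and 2.26 ± 0.173.

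**Figure D3:**
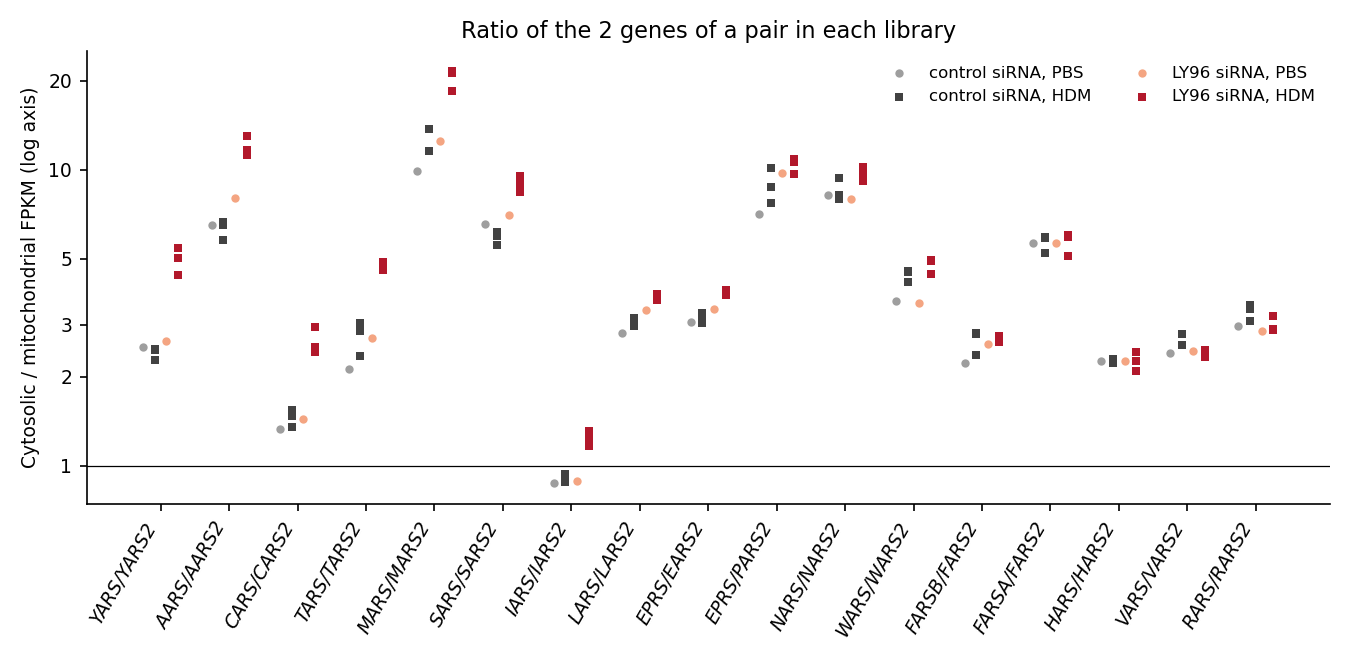
Ratio of cytosolic to mitochondrial FPKM for 17 gene pairs in each library, on a log axis, ordered by the change between the HDM groups; the line marks equal levels. The LY96 siRNA HDM libraries (red squares) stand above the others in the left pairs and among them in the right ones, and IARS/IARS2 crosses the line.

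The HDM response was then taken within each siRNA, as the 3 HDM libraries against the PBS library of the same siRNA. These tests assume that the lone PBS library varies as the HDM libraries do. With control siRNA, 1 of 20 cytosolic genes rose and 0 fell, against 1.55% and 0.738% of 12604 genes, and 0 of 16 mitochondrial genes passed in limma. At an unadjusted p under 0.05, 9 cytosolic genes and 1 mitochondrial gene were higher and 0 lower, against 9.45% and 6.73% of all genes. The mitochondrial count is near that share. The medians were log2 0.14 and 0.01, and 0.01 for all genes. All 3 HDM libraries lay above the PBS library for 16 cytosolic and 5 mitochondrial genes and below it for 3 and 3, where 33.8% and 29.2% of all genes did. The gene that rose was TARS, from 32.0 FPKM to 39.6, 39.6 and 37.9 FPKM (log2 0.28 ± 0.06 SE, adjusted p = 0.0491). Its call was lost in 6 alternatives, among them leaving out control HDM replicate 1, 2 or 3 or LY96 HDM replicate 1 (adjusted p = 0.116, 0.122, 0.0708 and 0.0723). YARS2 went from 6.75 to 8.28, 8.40 and 8.57 FPKM, the largest mitochondrial difference, and did not pass (log2 0.28 ± 0.07 SE, adjusted p = 0.0818).

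With LY96 siRNA, HDM raised 10 of 20 cytosolic genes and lowered 0, against 2.91% and 1.98% of all genes, while 0 of 16 mitochondrial genes passed in limma. At an unadjusted p under 0.05, 13 cytosolic and 0 mitochondrial genes were higher and 0 lower, against 9.39% and 7.28% of all genes. YARS went from 18.9 FPKM with PBS to a mean of 37.3 ± 2.49 FPKM with HDM (SD, n = 3, 1.98-fold, log2 0.94 ± 0.07 SE, adjusted p = 1.10e-04). CARS (log2 0.92), GARS (0.92), TARS (0.75), MARS (0.73), AARS (0.68), WARS (0.47), IARS (0.45), SARS (0.45) and NARS (0.28) also rose. EPRS was at log2 0.23 (adjusted p = 0.0505). All 3 HDM libraries lay above the PBS library for 16 cytosolic and 9 mitochondrial genes and below it for 0 and 1, against 33.4% and 27.7% of all genes. The medians were log2 0.25 for the cytosolic and 0.05 for the mitochondrial class, and 0.01 for all genes. This comparison and the siRNA comparison under HDM share the LY96 siRNA HDM libraries, so their lists are not independent of each other.

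**Figure D4:**
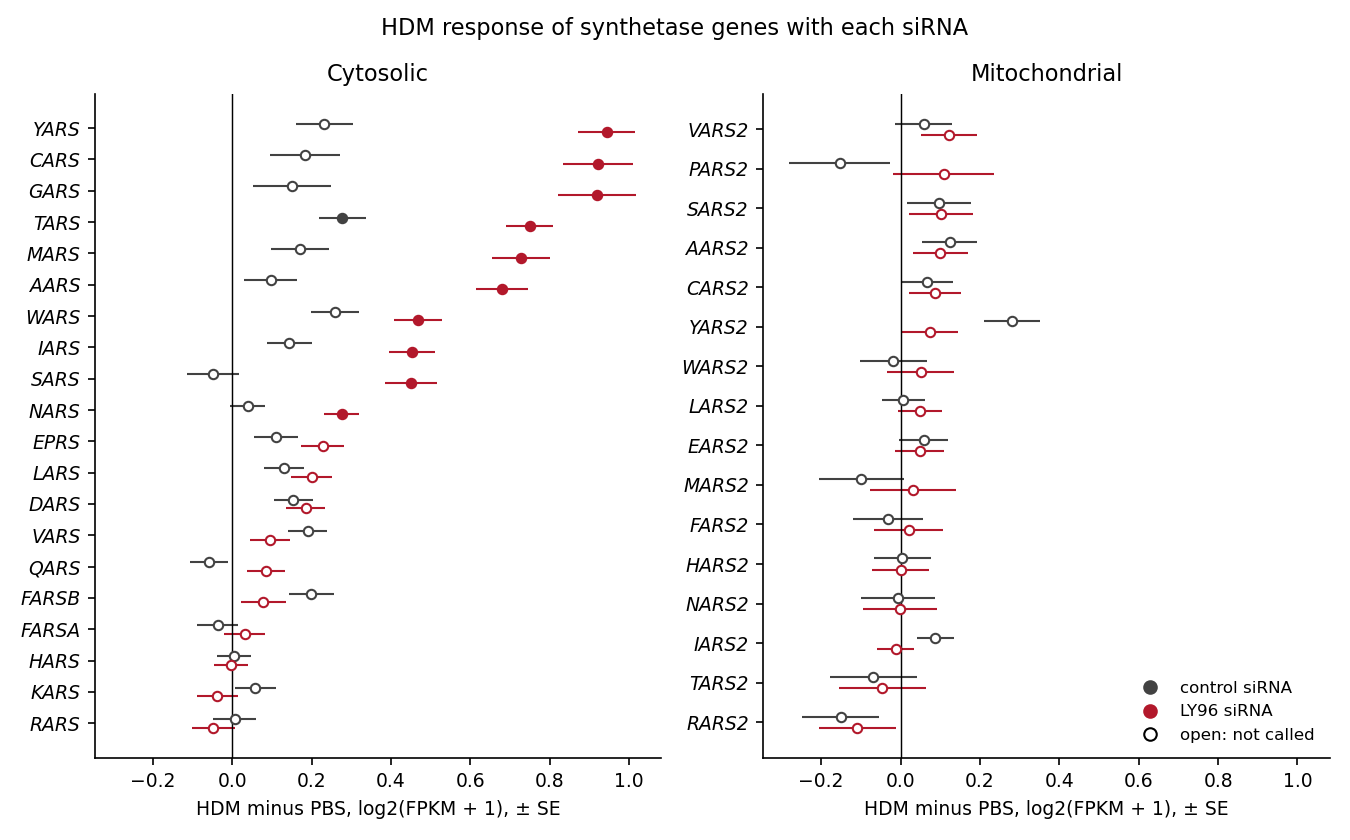
HDM minus PBS for each synthetase gene as log2(FPKM + 1) ± SE, with control siRNA (dark) and LY96 siRNA (red), 3 HDM libraries against 1 PBS library each. Filled points passed an adjusted p of 0.05, which TARS did with control siRNA and 10 cytosolic genes did with LY96 siRNA.

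Averaged over both siRNAs, HDM raised 14 of 20 cytosolic genes and lowered 0, and 0 of 16 mitochondrial genes passed in limma, against 4.86% up and 3.50% down over all genes. At an unadjusted p under 0.05, 15 cytosolic and 2 mitochondrial genes were higher and 0 lower, against 12.2% and 9.44% of all genes. The mitochondrial count is near that share. YARS (log2 0.59), CARS (0.55), GARS (0.53) and TARS (0.51) led. This average joins unequal responses. AARS was at log2 0.10 for control siRNA and 0.68 for LY96 siRNA. In the same order, CARS was at 0.18 and 0.92, GARS at 0.15 and 0.92, and MARS at 0.17 and 0.73. NARS was at 0.04 and 0.28, SARS at -0.05 and 0.45, and YARS at 0.23 and 0.94. SARS thus counts as raised although its control siRNA difference was negative. DARS (0.15 and 0.19) and LARS (0.13 and 0.20) were closer, and VARS went the other way (0.19 and 0.10). WARS rose by log2 0.36 ± 0.04 SE (adjusted p = 0.00101), and DARS (0.17), LARS (0.16) and VARS (0.14) passed here although they did not in the siRNA comparison. In an additive model of siRNA and HDM, 7 cytosolic genes passed, and AARS, CARS, GARS, MARS, NARS, SARS and YARS lost the call (adjusted p from 0.0761 to 0.354). Without robust and trended moderation 9 passed. VARS lost its call when any of the 6 HDM libraries was left out (adjusted p from 0.0553 to 0.0702).

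Whether the HDM response differed between the siRNAs was tested as an interaction. In limma 0 of 36 members passed, against 0.0555% of all genes up and 0 down. At an unadjusted p under 0.05, 10 cytosolic and 0 mitochondrial genes had a larger response with LY96 siRNA, and 0 a smaller one, against 4.15% and 3.44% of all genes. The nearest were YARS (log2 0.71 ± 0.10 SE, adjusted p = 0.0779), AARS (0.58 ± 0.09, 0.0971) and CARS (0.74 ± 0.12, 0.107). Without LY96 HDM replicate 2, 5 members passed, namely CARS (adjusted p = 0.0244), YARS (0.0294), GARS (0.0325), AARS (0.0448) and MARS (0.0476). YARS also passed when genes had to reach a mean of 5 FPKM (0.0413), after quantile normalization (0.0446) and at equal library totals (0.0455). SARS moved opposite ways by value, from 59.6 FPKM with PBS to 56.3, 57.8 and 58.8 FPKM with control siRNA, and from 60.7 to 82.8, 89.2 and 78.3 FPKM with LY96 siRNA (interaction log2 0.50 ± 0.09 SE, adjusted p = 0.128).

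The siRNA difference without HDM rests on 1 PBS library each and has no test. No member passed 1.5-fold in either direction, where 0.548% of all genes were higher and 1.17% lower by that much. Differences of cytosolic genes ranged from log2 -0.21 (QARS) to 0.18 (AARS), with a median of 0.02. Those of mitochondrial genes ranged from -0.29 (PARS2) to 0.12 (IARS2), with a median of -0.07. GARS, YARS and CARS, which led under HDM, were at log2 0.11, 0.14 and 0.10.

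Of the 3 LY96 siRNA HDM libraries, replicate 2 was the highest for 10 of the 10 genes that rose, while replicates 1 and 3 took either order below it. At equal library totals this held for 7 of 10. Replicate 2 was the highest for 6 of the other 10 cytosolic genes and 7 of 16 mitochondrial genes, and for 22 of 24 ATF4 response genes at either scaling. It also had the largest library total, 340328 FPKM. The share over all genes was not computed.

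Genes of the steps around aminoacylation were less uniform. Of the scaffold genes of the multisynthetase complex, 0 of 3 rose and 2 fell with LY96 siRNA under HDM. Over all genes, 6.68% rose and 8.92% fell. AIMP1 was at 15.5, 14.5 and 14.4 FPKM with control siRNA and at 13.2, 12.5 and 13.0 FPKM with LY96 siRNA (log2 -0.18 ± 0.04 SE, adjusted p = 0.0258). The AIMP2 means were 16.4 ± 0.570 and 14.3 ± 0.461 FPKM (SD, n = 3 per group), a fall with adjusted p = 0.0198 (log2 -0.19 ± 0.04 SE), and EEF1E1 was at log2 0.02. Under HDM, the siRNA difference of AIMP1 and AIMP2 was thus opposite to that of IARS, MARS and EPRS, the members that rose. The EEF1E1 libraries overlapped. AIMP2 was already lower with LY96 siRNA under PBS (0.795-fold, beside 0.870-fold under HDM), and AIMP1 was not (1.02-fold, 1 library each). Within LY96 siRNA, the ratio of HDM to PBS was 1.15-fold for AIMP2 and 0.905-fold for AIMP1. For IARS, MARS and EPRS it was 1.38-, 1.68- and 1.18-fold, so AIMP2 went the same way there. Over the alternatives the adjusted p reached 0.0779 for AIMP1, which did not pass without control HDM replicate 1 or 2 or LY96 HDM replicate 2 or 3. It reached 0.0758 for AIMP2, which did not pass without control HDM replicate 2 or LY96 HDM replicate 1 or 3.

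XPOT, which exports tRNA from the nucleus, was at 21.7, 22.0 and 20.9 FPKM with control siRNA and at 33.4, 34.4 and 33.0 FPKM with LY96 siRNA under HDM (1.56-fold, log2 0.62 ± 0.04 SE, adjusted p = 4.71e-05). In size this lies between TARS and MARS. SSB, which binds new RNA polymerase III transcripts such as tRNA precursors, fell (log2 -0.13), and XPO5 did not pass. Among 6 tested cytosolic elongation factor genes 4 rose and 0 fell, against 6.68% and 8.92% of all genes. EEF1A1, which brings charged tRNA to the ribosome, had means of 1366 ± 35.6 FPKM (SD, n = 3) with control siRNA and 1596 ± 18.0 FPKM (SD, n = 3) with LY96 siRNA, a log2 difference of 0.23. EEF1D (0.18), EEF1G (0.16) and EEF1B2 (0.12) were the others. Without HDM, EEF1A1 was already at 1406 FPKM with control and 1609 FPKM with LY96 siRNA (1 PBS library each). EEF1G was there at 583 and 638 FPKM, while EEF1D and EEF1B2 differed less (1.05- and 1.005-fold). Several of the calls made under HDM were lost in alternatives. The adjusted p reached 0.0634 for EEF1A1, after quantile normalization, and 0.101 for EEF1D and 0.108 for EEF1B2, which both did not pass without control HDM replicate 2 or 3 or LY96 HDM replicate 2 or 3. For SSB it reached 0.102, and leaving out any HDM library other than LY96 HDM replicate 3 ended the call. EEF1G passed in every alternative run (adjusted p up to 0.0346).

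Among mitochondrial translation factor genes 0 of 10 passed in limma. Of 9 other genes of aminoacylation and tRNA amidation, 0 passed, among them QRSL1, GATB and GATC. At an unadjusted p under 0.05 the counts were 1 and 0, where 12.8% of all genes were up and 18.4% down. At an adjusted p below 0.05, 6.68% of all genes rose and 8.92% fell. Of the 77 genes for mitochondrial ribosomal proteins, 14 fell and 0 rose, at a median of log2 -0.09. MRPL36 (log2 -0.30), MRPS18C (-0.29), MRPS2 (-0.22) and MRPL12 (-0.20) fell the most. With PBS, MRPL12 was already lower with LY96 siRNA (0.832-fold, beside 0.872-fold under HDM), and MRPL36 was not (1.02-fold, 1 library each). The median difference in HDM response between the siRNAs was log2 0.04 for this list. Of the 84 tested for cytosolic ribosomal proteins, 12 rose and 5 fell, at a median of log2 0.05. The 5 falls are near the share of all genes. RPL10 (0.26), RPL7 (0.19) and RPS6 (0.19) rose and RPL26L1 (-0.19) fell by the largest amounts.

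The ATF4 response list was written with earlier results of these data known and is no independent evidence of direction. Of its 24 tested genes 23 rose and 0 fell with LY96 siRNA under HDM, against 6.68% and 8.92% of all genes. Their median was log2 0.89. ATF4 itself was at 145, 139 and 132 FPKM with control siRNA and at 258, 282 and 254 FPKM with LY96 siRNA (1.91-fold, log2 0.93 ± 0.05 SE, adjusted p = 3.06e-05), a fold close to that of GARS. CHAC1 (log2 2.64), PSAT1 (1.95), ASNS (1.92) and SLC7A11 (1.81) had larger differences than any synthetase gene. With control siRNA, HDM raised 2 of these 24 genes, against 1.55% of all genes. With LY96 siRNA it raised 22, against 2.91%. Each of these counts rests on 1 PBS library.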

How the data were processed

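RNA of 8 libraries was deposited as 1 table per library. The submitters' processing notes name HISAT2 2.2.0 and the hg38 build. Which program quantified genes, and on which annotation, is not given in the sources used here. The deposited values were read as FPKM, since they are not whole numbers and library totals differ. Whole reads could not be recovered, because ratios of low values between libraries showed no steps (the most frequent took 1.23% of 326 genes), so depth is unknown. No library pair held identical values.

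Groups follow the titles. limma 3.58.1 in R 4.3.3 was run on log2(FPKM + 1), with trend and robust settings. Genes had to average 1 FPKM or more across the libraries in the fit. All 36 members passed this filter. The siRNA effect used the 6 HDM libraries, and the other contrasts a model of 4 group means over 8 libraries, each with 4 residual degrees of freedom. Two-sided tests were used, with Benjamini-Hochberg adjustment across every gene tested. Fold values are ratios of mean FPKM, and log2 differences understate changes of low genes. The members, lists and tests were chosen with earlier results of these data known. The tests were tried on simulated data. There the PBS libraries were given the spread of the HDM libraries, so that assumption was not checked.

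Per-library values were given for GARS, KARS, QARS and WARS, for up to 10 cytosolic genes called in the siRNA or interaction test, for the 4 mitochondrial genes with the largest siRNA effect, for the largest and smallest effect in each class, and values or differences for up to 4 called genes of each other list. DDIT3 and the level of ATF4 were added after values were seen. Gene coordinates are those of GENCODE v29 (GRCh38), which may differ from the authors' annotation. In it 14 of the 36 members overlap exons of another gene in the tables, for example VARS2 with GTF2H4 and YARS with S100PBP, and are uncertain there. Promoters are from RefSeq (GRCh38.p14), where all 36 members were matched, 18 of them under a newer symbol ending in 1. No protein sequences were used here. 1 gene of the pathway lists is not reported here. The alternatives tried were other pseudocounts, filters, scalings, moderation and models, leaving out each HDM library, and leaving out GARS and KARS.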

Additional observations from a re-analysis of the deposited data

Results flagged for a closer look

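Among the genes followed through every alternative, ATF4, SLC7A11 (a cystine transporter gene) and DDIT3 had an HDM response that differed between the siRNAs by a test of the difference itself (limma). The response of ATF4 was larger with LY96 siRNA by log2 0.80 ± 0.09 SE (adjusted p = 0.0430), and over 14 alternatives the adjusted p ranged from 0.0130 to 0.288. That of SLC7A11 was larger by log2 1.76 ± 0.17 SE (adjusted p = 0.0384), with adjusted p from 0.0106 to 0.129. Each test has 1 PBS library per siRNA.
DDIT3, whose exons overlap those of MARS, had a response larger by log2 1.39 ± 0.15 SE (adjusted p = 0.0430), with adjusted p from 0.0102 to 0.288 over 14 alternatives.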

How the results depend on the processing

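For the siRNA effect under HDM, 9 to 11 cytosolic genes rose under the 12 alternatives that keep all libraries and 8 to 11 when a library was left out, with LARS2 down in each. The count of all genes called was 1119 to 1369 without single libraries, against 842 up and 1124 down with all. Cytosolic falls numbered 1 (FARSA) at equal library totals and 1 (FARSA) in the additive model. The gap between the class medians (cytosolic minus mitochondrial, log2) was 0.163 in the additive model against 0.212. With control siRNA, HDM raised 0 cytosolic genes without the low-value filter, 0 without trended and robust moderation (180 of all genes), 2 at a mean of 5 FPKM (gap 0.104) and 0 to 1 without single libraries, where the gap was 0.101 to 0.131 and all calls 187 to 329. With LY96 siRNA the gap was 0.185 to 0.231 without single libraries. Over both siRNAs, cytosolic rises were 9 without trended and robust moderation and 7 in the additive model. For the interaction, all calls were 20 without the low-value filter, 15 at 5 FPKM, 14 after quantile normalization, 16 at equal totals, 0 without trended and robust moderation, and 0 to 33 without single libraries. Cytosolic calls were 1 at 5 FPKM, 1 after quantile normalization, 1 at equal totals and 0 to 5 without single libraries, with a gap of 0.125 to 0.173. The causes were not tested. No mitochondrial gene rose in any comparison under any alternative tried.

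The sample numbers shared by the HDM groups gave no sign of pairing (correlations of deviations 0.0339, -0.0185 and -0.0222). With the replicate block, 716 genes rose and 919 fell, and the members' counts were the same, 10 cytosolic up and 1 mitochondrial down. Depth is unknown, so what it limits could not be stated.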
